A study of Mactra quadrangularis with 9 samples.

Results

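Gill of the surf clam Mactra quadrangularis (Mactra veneriformis in the series text) held for 24 h at 4 mg/L dissolved oxygen, a moderate hypoxia, was compared with gill held for the same time at 7.5 mg/L, the aerated control. These 2 groups supply 6 of the 9 poly(A) RNA libraries of the study, 3 each, and the remaining 3 come from gill after 24 h at 2 mg/L. All clams shared water at 20 ± 1 °C and a salinity of 27, went unfed, and stood 40 to a parallel, with oxygen kept to ± 0.2 mg/L, by nitrogen bubbling in the 2 hypoxia groups and by aeration in the control. Age, sex and the number of clams behind each library are not given in the sources used here, so p-values measure the spread between libraries, which may be technical. Genes were included when their FPKM (fragment counts scaled to gene length and library size) averaged at least 1 over the 9 libraries. This left 15397 of 24722 genes, which were then grouped by the description, gene ontology term and KEGG pathway that the deposited table gives for each.

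Bivalve gill is a sheet of ciliated epithelium that drives water past the body, takes up oxygen and traps food particles. Animal cells read falling oxygen through prolyl hydroxylases of the EGLN family, which need oxygen to mark the alpha subunit of hypoxia-inducible factor (HIF) for destruction; the spared subunit pairs with ARNT and switches on genes such as those for vascular endothelial growth factor and the mitophagy receptor BNIP3. Intertidal bivalves also redirect carbon through phosphoenolpyruvate carboxykinase toward succinate when oxygen runs short, and cells under such stress commonly slow the making of ribosomes and load chaperones into the endoplasmic reticulum.

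Library totals at 4 and 7.5 mg/L ran from 26994566 to 32246147 counts, and between 20316 and 20958 genes had a count in each of the 9 libraries. The 4 mg/L libraries stood apart. Across genes, their log2 CPM correlated with one another at 0.980 to 0.982, with the 2 mg/L libraries at 0.772 to 0.782 and with the control at 0.784 to 0.792, whereas the 2 mg/L and control libraries correlated at 0.851 to 0.855. By this measure the milder hypoxia was the farther of the 2 from the control. A difference in batch was not tested. Whether the oxygen labels or the tissue taken differ between the groups was not tested, which bears on every value set between 4 and 2 mg/L. All 6 libraries carried ciliary transcripts. The 91 tested markers of ciliated epithelium summed to 9271 to 9397 CPM at 4 mg/L and 10666 to 10683 CPM at 7.5 mg/L. These markers cannot show whether the groups held the same tissue. Digestive gland markers moved with the 4 mg/L group: 14 of 24 rose and 3 fell, beside 35.4% of all tested genes that rose and 34.5% that fell, with sums of 2740.5 to 2800.4 CPM at 4 mg/L and 2563 to 2618 CPM at 7.5 mg/L. Cathepsin L3 (Mve05G015750), a lysosomal protease also found outside the gut, supplied most of those summed CPM, at 2099 ± 51.3 CPM at 4 mg/L and 1952 ± 15 CPM at 7.5 mg/L. Alpha-amylase (Mve02G006580) had 7.94, 10.5 and 9.96 CPM at 4 mg/L, against 1.47, 0.97 and 0.939 CPM at 7.5 mg/L, and a trypsin-like protein (Mve01G019500) had 13.6, 11 and 13.7 CPM at 4 mg/L, against 1.16, 2.06 and 1.44 CPM at 7.5 mg/L. Both were at or near 0 at 2 mg/L. Pancreatic triacylglycerol lipase-like (Mve18G004440) fell, to 155 ± 5.89 CPM at 4 mg/L, against 295 ± 13.1 CPM at 7.5 mg/L. No digestive marker was at 0 in all libraries at 4 or 7.5 mg/L, and the part of digestive tissue in the results below was not tested. In whole gill, fewer cells of a type and less RNA per cell cannot be told apart.

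Most of the gill transcriptome differed between 4 and 7.5 mg/L. By edgeR's quasi-likelihood test with Benjamini-Hochberg adjustment over the 15397 genes (called at an adjusted p under 0.05), 10760 genes, or 69.9%, were called, 5447 higher at 4 mg/L (35.4%) and 5313 lower (34.5%). These shares are the background for every count below, as is the median log2 change of -0.005 over all genes. Changes of at least 2-fold were called in 5027 genes (32.6%), 2753 higher (17.9%) and 2274 lower (14.8%). At the far end the balance tipped upward: of 1094 genes changed at least 8-fold, 774 were higher and 320 lower. Large changes were commoner among weakly expressed genes, with 46.2% changed at least 2-fold in the lowest quartile by mean FPKM and 22.9% in the highest. The lowest and highest library values did not overlap between the groups for 74.2% of genes, 37.4% with all hypoxic libraries higher and 36.9% with all lower. These are the background for each gene said below not to overlap. Levels below are library-scaled counts (TMM-scaled CPM), a change is 4 over 7.5 mg/L, and errors are the SD of 3 libraries unless named SE.

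**Figure D1:**
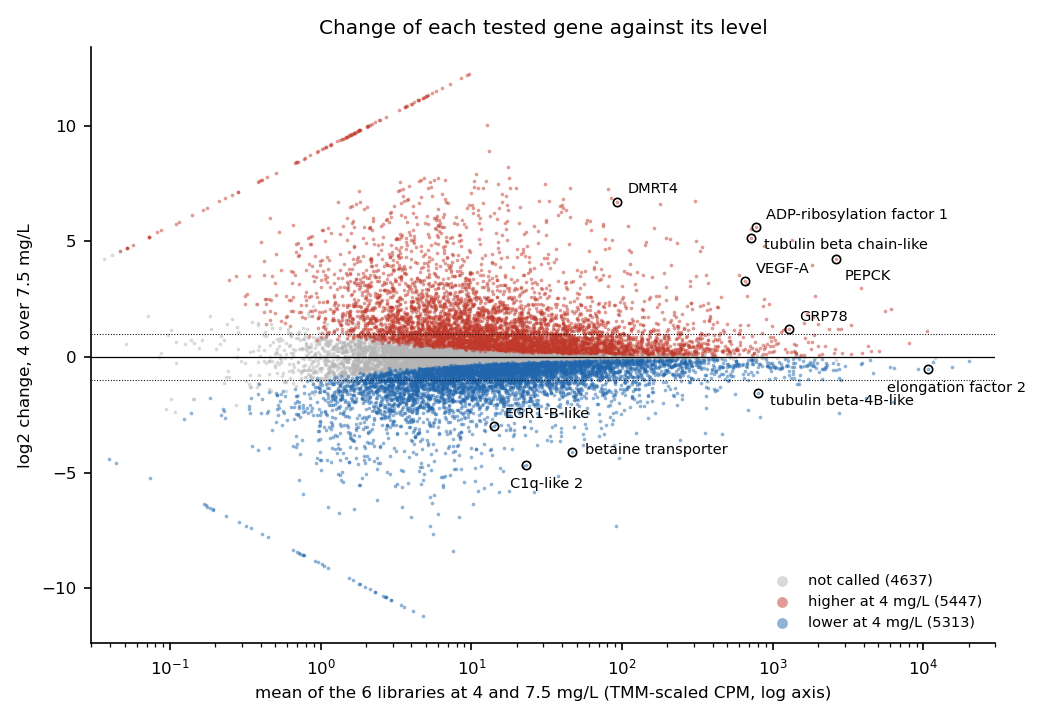
Log2 change of 15397 genes (vertical axis, 4 over 7.5 mg/L) against their mean level in the 6 libraries (horizontal, TMM-scaled CPM, log axis), coloured by call, with dotted lines at a 2-fold change. The 5447 higher and 5313 lower genes fan out widest at low levels, and the slanted lines of points at far left are genes with 0 counts in one group, whose fitted change is no measured size.

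The list of HIF and oxygen sensing genes moved almost as a block, though its hydroxylases split. Beside HIF-1alpha, ARNT and the hydroxylases EGLN1-like and PHD2B, it holds vascular endothelial growth factor A, a receptor gene, BNIP3 and the chaperone HYOU1. 7 of 8 tested members rose and 1, PHD2B, fell, with a median log2 change of 1.34. The largest rise was in the gene for vascular endothelial growth factor A (Mve09G007790, chromosome 9, 26841576 to 26849913), the secreted ligand that in vertebrates guides vessel growth. It had 1214, 1205 and 1157 CPM at 4 mg/L, against 118, 124 and 127 CPM at 7.5 mg/L, a 9.68-fold rise (log2 change 3.27 ± 0.0507 (SE), adjusted p = 4.18e-18). All 3 hypoxic libraries lay far above the controls. A receptor for such ligands, vascular endothelial growth factor receptor 1-like (Mve09G004630), had 21.2, 18.5 and 18.3 CPM at 4 mg/L, against 2.98, 3.56 and 3.67 CPM at 7.5 mg/L, 5.66-fold higher (log2 change 2.50 ± 0.16 (SE), adjusted p = 6.01e-10). Ligand and receptor genes both lie on chromosome 9, and neither overlapped between the groups. The mitophagy receptor BNIP3 (Mve13G003520), a classic HIF target in mammals, had 11.4, 13.4 and 14.1 CPM at 4 mg/L, against 3.47, 2.35 and 1.88 CPM at 7.5 mg/L (5.09-fold, log2 change 2.35 ± 0.21 (SE), adjusted p = 3.72e-08).

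HIF-1alpha and its hydroxylase changed less. HIF-1alpha (Mve02G016380) had 262, 247 and 250.4 CPM at 4 mg/L, against 90.8, 92.2 and 96.3 CPM at 7.5 mg/L, and EGLN1-like (Mve02G014470) had 65.2, 62.1 and 66.8 CPM at 4 mg/L, against 28.1, 28.8 and 25.9 CPM at 7.5 mg/L. Neither overlapped between the groups, and the fitted rises were 2.72-fold and 2.34-fold. The HIF partner ARNT (Mve10G004750) rose 1.41-fold (log2 change 0.50 ± 0.0808 (SE), adjusted p = 3.97e-05), the smallest change of the list. A second hydroxylase gene, described as HIF-alpha prolyl 4-hydroxylase PHD2B (Mve02G015310), went the other way at 1.67, 1.27 and 1.16 CPM at 4 mg/L, against 2.46, 3.38 and 3.38 CPM at 7.5 mg/L (log2 change -1.17 ± 0.29 (SE), adjusted p = 0.00188). Vascular endothelial growth factor A also gave the largest log2 difference of the list between 4 and 2 mg/L, with 1192 CPM at 4 mg/L, against 293 CPM at 2 mg/L (log2 difference 2.02, adjusted p = 1.78e-15), and the chaperone HYOU1 (Mve07G000120) had 49 CPM at 4 mg/L, against 13.8 CPM at 2 mg/L (log2 difference 1.83, adjusted p = 6.51e-11). BNIP3 did not differ beyond the test between the 2 hypoxic levels (adjusted p = 0.209).

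Growth and nutrient signalling receptors were singled out after their values were seen. Both tested genes described as insulin-like peptide receptor rose: Mve12G010380 had 76.2, 67 and 68.4 CPM at 4 mg/L, against 3.05, 1.79 and 3.4 CPM at 7.5 mg/L (25.7-fold, log2 change 4.68 ± 0.13 (SE), adjusted p = 1.08e-14), and Mve10G008380 had 113, 101 and 108 CPM at 4 mg/L, against 18.6, 22.5 and 18.5 CPM at 7.5 mg/L (5.4-fold). The first was near absent in control gill. A gene for an insulin-like peptide 2 (Mve13G007020), a ligand, fell to 6.68 ± 0.627 CPM at 4 mg/L, against 16.7 ± 0.785 CPM at 7.5 mg/L.

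Genes of anaerobic carbon use rose more often than they fell. Of 23 anaerobic and gluconeogenic enzyme genes, 15 rose and 4 fell (median log2 change 0.49). Cytosolic phosphoenolpyruvate carboxykinase (Mve06G010350, chromosome 6, 34103329 to 34112237), the enzyme at the branch between glycolysis and succinate or glucose synthesis, had 4938, 4884 and 5182 CPM at 4 mg/L, against 281, 265 and 259 CPM at 7.5 mg/L (18.6-fold). It is the last of 3 adjacent carboxykinase genes: Mve06G010330 rose 2.62-fold (200.1 CPM at 4 mg/L, 76.4 CPM at 7.5 mg/L) and Mve06G010340 rose 1.75-fold (402 CPM at 4 mg/L, 230.1 CPM at 7.5 mg/L). Fructose-1,6-bisphosphatase 1-like (Mve10G011910), which runs glycolysis backward, had 78.1, 83.2 and 84.3 CPM at 4 mg/L, against 41.8, 41 and 37.8 CPM at 7.5 mg/L (2.04-fold, log2 change 1.03 ± 0.0609 (SE), adjusted p = 1.71e-10). Opine dehydrogenases, which regenerate NAD+ by joining pyruvate to an amino acid, did not all move alike. Octopine dehydrogenase-like Mve03G009440 rose 1.52-fold (10.2 CPM at 4 mg/L, 6.74 CPM at 7.5 mg/L). Octopine dehydrogenase Mve03G010040 rose to 25 ± 1.94 CPM at 4 mg/L, against 17.9 ± 0.281 CPM at 7.5 mg/L. Its neighbour Mve03G010050 fell to 3.91 ± 0.871 CPM at 4 mg/L, against 6.71 ± 0.854 CPM at 7.5 mg/L. Reads may be shared between genes of one description, so the split between such neighbours is uncertain.

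Of 34 genes of glycolysis and glucose transport, 16 rose and 8 fell (median log2 change 0.19). The enzymes of glycolysis did not move together. Glyceraldehyde-3-phosphate dehydrogenase (1416 CPM at 4 mg/L, 1408 CPM at 7.5 mg/L), phosphoglycerate kinase, glucose-6-phosphate isomerase and pyruvate kinase were not called. Phosphoglycerate mutase (Mve13G007230) fell (198.5 CPM at 4 mg/L, 248 CPM at 7.5 mg/L), as did an aldolase (Mve11G015860). Another aldolase (Mve11G002450), triosephosphate isomerase, phosphofructokinase and enolase-like (Mve04G001220) rose. The facilitated glucose transporter Mve04G001160 had 52.5, 49.9 and 46.3 CPM at 4 mg/L, against 10.7, 11.6 and 8.72 CPM at 7.5 mg/L (4.8-fold, log2 change 2.26 ± 0.0973 (SE), adjusted p = 2.49e-12), and the adjacent copy Mve04G001170 had 7.51, 8.05 and 8.49 CPM at 4 mg/L, against 2.1, 2.79 and 2.38 CPM at 7.5 mg/L. Both were higher in every hypoxic library than in any control, but at 2 mg/L they parted, with 88.8 and 1.26 CPM. ADP-dependent glucokinase-like (Mve10G005310), which phosphorylates glucose at the cost of ADP in place of ATP, rose 4.89-fold (13.2 CPM at 4 mg/L, 2.7 CPM at 7.5 mg/L), while a second such gene (Mve02G001190) was not called (14 CPM at 4 mg/L, 13.4 CPM at 7.5 mg/L). Of 2 hexokinase-1-like genes, Mve05G004000 fell 1.95-fold (8.99 CPM at 4 mg/L, 17.6 CPM at 7.5 mg/L) and Mve13G007880 rose 1.67-fold (56.1 CPM at 4 mg/L, 33.6 CPM at 7.5 mg/L). Hexokinase-2-like (Mve13G001090) had 4.91, 5.58 and 3.75 CPM at 4 mg/L, against 7.75, 6.47 and 8.1 CPM at 7.5 mg/L, while the adjacent gene for hexokinase type 2 (Mve13G001100) had 358, 363 and 355 CPM at 4 mg/L, against 124, 124 and 117 CPM at 7.5 mg/L. A glycogen-binding subunit (Mve06G004990), which targets a phosphatase to glycogen and was noted after its values were seen, averaged 336 ± 5.74 CPM at 4 mg/L and 131 ± 3.71 CPM at 7.5 mg/L.

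Mitochondrial genes showed no common direction. Respiratory chain and ATP synthase genes split 16 higher and 15 lower of 46 (median log2 change 0.04); under total-count scaling 10 were higher and 16 lower. The largest rise was in alternative oxidase (Mve07G002200), a terminal oxidase that bypasses the cytochrome chain, at 125, 108 and 124 CPM at 4 mg/L, against 55.7, 52.1 and 50.6 CPM at 7.5 mg/L (2.25-fold). Its hypoxic values were well above the control ones, whereas no other member changed as much as 2-fold. ATP synthase subunit gamma (Mve08G010770) fell 1.62-fold (130.1 CPM at 4 mg/L, 211 CPM at 7.5 mg/L) and cytochrome c oxidase subunit 5A (Mve10G004760) rose 1.44-fold (397 CPM at 4 mg/L, 275 CPM at 7.5 mg/L). In the citric acid cycle 8 of 17 genes rose and 3 fell, among the rises cytoplasmic aconitase (Mve17G003750, 88.5 CPM at 4 mg/L, 49.8 CPM at 7.5 mg/L), whose protein also senses iron in mammals.

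The endoplasmic reticulum folding list was among the most one-sided groups. Beside chaperones and disulfide enzymes it holds genes for Sec61, translocon-associated proteins, signal peptidase and derlin-1, and it shares HYOU1 with the oxygen sensing list. 22 of its 28 genes rose and 2 fell (median log2 change 0.48). The wider KEGG sets, which may hold the same genes, leaned the same way. In them 98 of 151 protein processing genes and 16 of 24 protein export genes were higher, against 19 and 2 lower. The oxidase that makes disulfide bonds, ERO1-like protein beta (Mve02G012300), had 14.9, 15.7 and 12.6 CPM at 4 mg/L, against 2.00, 1.88 and 2.35 CPM at 7.5 mg/L (6.9-fold, log2 change 2.79 ± 0.19 (SE), adjusted p = 7.83e-10). The main chaperone of the compartment, the 78 kDa glucose-regulated protein GRP78 (Mve14G007880), had 1784, 1748 and 1829 CPM at 4 mg/L, against 792, 779 and 751 CPM at 7.5 mg/L (2.31-fold). Both were tightly grouped within each oxygen level. One disulfide isomerase copy, PDIA3 Mve10G006490, had 0 counts in the 3 libraries at 4 mg/L and 4.03, 4.61 and 5.08 CPM at 7.5 mg/L, at least 148-fold lower when the hypoxic group is set to a total of 3 counts. A second PDIA3 gene, Mve10G009610, rose to 456 ± 12.4 CPM at 4 mg/L, against 358 ± 8.31 CPM at 7.5 mg/L. These genes also set 4 apart from 2 mg/L: 24 of 28 were higher at 4 than at 2 mg/L and 2 lower, beside 32.1% and 31.6% of all genes.

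A list of amino acid supply and stress response genes leaned the same way, with 14 of 21 higher and 4 lower. It holds amino acid enzymes and transporters and genes for X-box-binding protein 1. It also holds genes of the integrated stress response, which curbs translation when amino acids or folding capacity fall short. Initiation factor 2-alpha kinase 4 (Mve02G002960), the enzyme that starts this response when amino acids run short, had 17.4, 21.1 and 20.2 CPM at 4 mg/L, against 4.38, 3.03 and 3.76 CPM at 7.5 mg/L (5.27-fold, log2 change 2.40 ± 0.17 (SE), adjusted p = 2.14e-09). Another gene of that description (Mve02G018740) fell 2.18-fold (2.16 CPM at 4 mg/L, 4.71 CPM at 7.5 mg/L). The transcription factor ATF-3-like (Mve02G003040) averaged 186 ± 2.4 CPM at 4 mg/L and 63.5 ± 2.77 CPM at 7.5 mg/L, and C/EBP beta (Mve06G004740), a stress and inflammation regulator, averaged 4778 ± 259 CPM at 4 mg/L and 1810.3 ± 19.4 CPM at 7.5 mg/L. The last of these was higher still at 2 mg/L, as was ATF-3-like: the differences between 4 and 2 mg/L were -0.91 for ATF-3-like and -0.97 for C/EBP beta on the log2 scale. Aminoacyl-tRNA synthetases, which charge tRNAs, rose in 20 of 35 genes and fell in 4, with modest sizes (median log2 change 0.38). Cytoplasmic serine--tRNA ligase (Mve08G015270) rose 1.7-fold (89.7 CPM at 4 mg/L, 52.6 CPM at 7.5 mg/L), and the abundant cysteine--tRNA ligase (Mve16G008480) fell 1.47-fold (317 CPM at 4 mg/L, 467 CPM at 7.5 mg/L).

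Ribosomal protein genes moved downward and evenly. Of 68 cytosolic ribosomal protein genes, 62 fell and 1 rose, and 87 of 125 genes in the KEGG ribosome set fell. The falls were small: the median log2 change was -0.39, the deepest -0.95, and no member fell 2-fold. Ribosomal protein genes as a sum took 46723 to 49331 CPM at 4 mg/L and 62071 to 65836 CPM at 7.5 mg/L. The single rise and the deepest fall were both genes for protein S6 on chromosome 10. Mve10G002420 had 595, 585 and 625 CPM at 4 mg/L, against 285, 279.8 and 316 CPM at 7.5 mg/L, and Mve10G002520 had 1136, 1152 and 1218 CPM at 4 mg/L, against 2284, 2242 and 2262 CPM at 7.5 mg/L. They diverged in every library, and the sharing of reads between the copies was not tested. Mitochondrial ribosomal proteins split 15 higher and 12 lower of 49.

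Elongation factor 2 (Mve10G006750), which moves the ribosome along the message, had 8658, 8719.7 and 8927 CPM at 4 mg/L, against 12760.2, 12613 and 12787 CPM at 7.5 mg/L (1.45-fold lower, log2 change -0.54 ± 0.0209 (SE), adjusted p = 6.49e-13). It was among the 12 largest differences in CPM. The kinase that inhibits it, elongation factor 2 kinase (Mve01G013710), was looked up after the factor had been seen and had 40.8, 44.1 and 40.7 CPM at 4 mg/L, against 15.3, 13 and 17.5 CPM at 7.5 mg/L (2.74-fold higher, log2 change 1.45 ± 0.0988 (SE), adjusted p = 1.02e-09). Translation factors as a list leaned upward, 24 of 44 higher and 7 lower, led by initiation factor 5B-like (Mve03G011700, 16.1 CPM at 4 mg/L, 5.52 CPM at 7.5 mg/L). A more abundant 5B gene (Mve09G002420) was not called (112 CPM at 4 mg/L, 119 CPM at 7.5 mg/L). The 7 lower genes were elongation factors 1 alpha, 1 beta, 1-gamma-like and 2, polyadenylate-binding proteins 2 and 4-like, and initiation factor 5-like. Elongation factor 1 alpha (Mve18G005250) had 18982 CPM at 4 mg/L and 21149 CPM at 7.5 mg/L. Initiation factor 5-like (Mve02G009240) fell 2.34-fold (85.4 CPM at 4 mg/L, 200.1 CPM at 7.5 mg/L). Upstream of the ribosome, 29 of 72 ribosome biogenesis genes fell and 15 rose; NAF1 (Mve01G005840), an assembly factor of the particles that modify ribosomal RNA, fell 2.79-fold (11.9 CPM at 4 mg/L, 33.1 CPM at 7.5 mg/L).

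Among 78 splicing genes 46 fell and 19 rose (median log2 change -0.30), and the KEGG spliceosome set gave 70 lower and 27 higher of 145. A gene related to the small subunit of the U2 auxiliary factor (Mve15G003700), which reads the acceptor splice site, had 6.64, 8.74 and 7.43 CPM at 4 mg/L, against 23.1, 26.5 and 23 CPM at 7.5 mg/L (3.18-fold lower). The U1 protein A-like gene (Mve16G000670) fell 2.36-fold (9.3 CPM at 4 mg/L, 22 CPM at 7.5 mg/L). Cyclin-dependent kinase 12 (Mve12G002530), which in mammals phosphorylates RNA polymerase II and appears in the cell cycle list, fell 3.33-fold (22.2 CPM at 4 mg/L, 73.8 CPM at 7.5 mg/L).

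**Figure D2:**
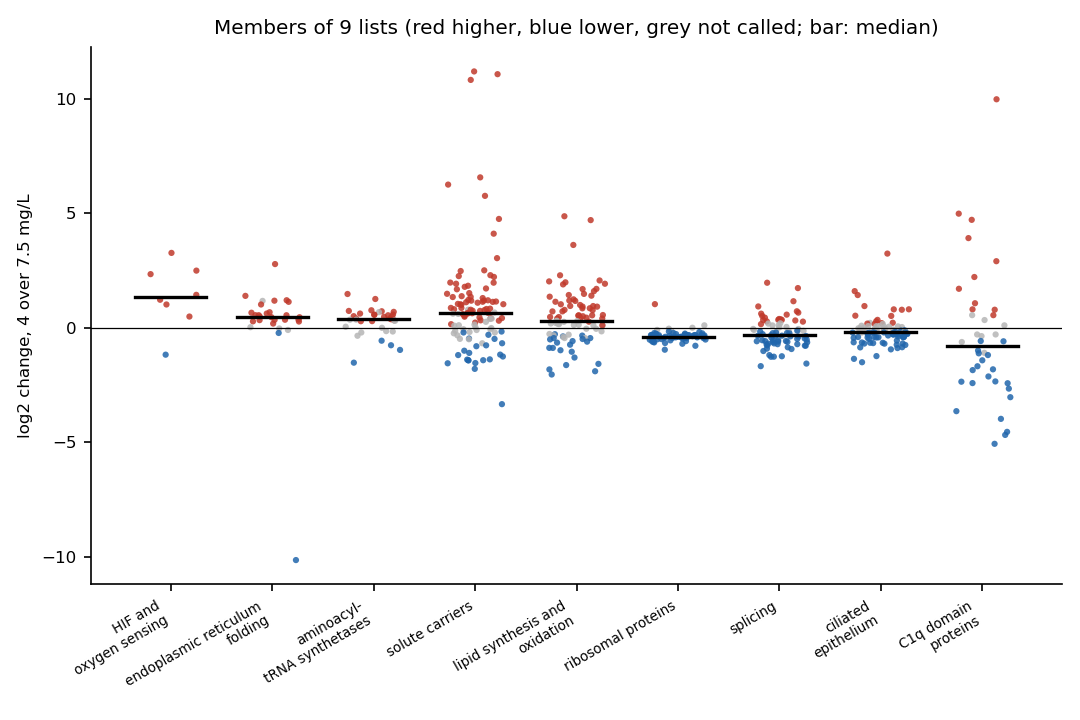
Log2 change (4 over 7.5 mg/L) of each tested member of 9 lists, with a bar at the list median. The 68 ribosomal protein genes form a tight band around -0.39 with 1 member above 1, the solute carriers and C1q genes spread over several units in both directions, and the members beyond 9 had 0 counts in one group or nearly so.

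Membrane transport changed widely. Among 108 solute carrier genes 63 rose and 22 fell, and 40 of the rises were at least 2-fold (median log2 change 0.63). Monocarboxylate transporter 2 (Mve18G005160), of the family that carries lactate and pyruvate, had 20.3, 19.9 and 19.7 CPM at 4 mg/L, against 0, 0.353 and 0.235 CPM at 7.5 mg/L (95.2-fold, log2 change 6.57 ± 0.35 (SE), adjusted p = 3.71e-11). The organic anion transporter SLCO2A1-like (Mve18G004190), which moves prostaglandins in mammals, had 78.7, 77.5 and 75.5 CPM at 4 mg/L, against 1.09, 0.911 and 1.03 CPM at 7.5 mg/L. Both were close to silent in control gill. A different monocarboxylate transporter 2 gene (Mve02G006930) fell to 1.11 ± 0.0509 CPM at 4 mg/L, against 11.2 ± 0.618 CPM at 7.5 mg/L, so members of this family moved both ways. Of the 108 carriers 54 were higher at 4 than at 2 mg/L and 26 lower, beside 32.1% and 31.6% of all genes. Digestive gland markers rose in these libraries too (14 of 24), and their part in the transporter result was not tested.

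Marine bivalves hold their cell volume with organic osmolytes, and osmolyte and ion transport genes fell more often than they rose (32 and 22 of 71). The betaine transporter Mve06G010360, which lies next to the phosphoenolpyruvate carboxykinase genes on chromosome 6 (34117640 to 34147831), had 4.88, 5.27 and 5.21 CPM at 4 mg/L, against 81, 92.8 and 91.8 CPM at 7.5 mg/L (17.3-fold lower, log2 change -4.11 ± 0.0934 (SE), adjusted p = 5.26e-16). Aquaporin-5-like (Mve06G006830), a water channel, had 11.2, 9.85 and 10.5 CPM at 4 mg/L, against 84, 90.2 and 80.2 CPM at 7.5 mg/L (8.07-fold lower). In both the hypoxic values were far below every control value. A taurine transporter (Mve08G011310) had 9.17, 9.02 and 12.3 CPM at 4 mg/L and 0 counts at 7.5 and at 2 mg/L, at least 327-fold higher than the control when its total is set to 3 counts. A membrane-anchored carbonic anhydrase (Mve11G016400), which interconverts carbon dioxide and bicarbonate, had 246, 229.8 and 226 CPM at 4 mg/L, against 17.7, 19.2 and 17.8 CPM at 7.5 mg/L (12.8-fold higher, log2 change 3.68 ± 0.0642 (SE), adjusted p = 1.58e-17).

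Lipid genes leaned upward, 45 of 87 higher and 21 lower, and so did the KEGG sets for fatty acid breakdown (23 higher and 6 lower of 40) and synthesis (10 and 2 of 15). A heart-type fatty acid-binding protein (Mve11G004150), a cytosolic carrier of fatty acids, had 163, 164 and 147 CPM at 4 mg/L, against 5.75, 5.5 and 6.84 CPM at 7.5 mg/L (26.1-fold, log2 change 4.71 ± 0.093 (SE), adjusted p = 7.73e-17). It was lower still at 2 mg/L than in the control, at 2.24 CPM, so its rise was seen at the intermediate oxygen level and not at the lowest. Cholesterol 7-desaturase-like (Mve14G000450), a sterol-modifying enzyme, had 119.5, 108 and 117 CPM at 4 mg/L, against 23.9, 23.8 and 22.6 CPM at 7.5 mg/L. Acyl-CoA-binding domain protein 7 (Mve12G004980) fell 4.1-fold (12.4 CPM at 4 mg/L, 50.9 CPM at 7.5 mg/L).

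Detoxification genes moved both ways. In the list of cytochrome P450 and conjugation enzymes 26 of 60 genes rose and 19 fell, 21 and 9 of them at least 2-fold. Antioxidant and thiol enzymes fell in 30 and rose in 20 of 69 genes, but of changes past 2-fold 8 were rises and 2 falls. The steepest were glutathione S-transferases, which attach glutathione to reactive compounds: a pi-class gene (Mve03G018750) had 14.3, 13.8 and 11.3 CPM at 4 mg/L, against 0.491, 0.823 and 0.646 CPM at 7.5 mg/L (19.8-fold, log2 change 4.31 ± 0.27 (SE), adjusted p = 3.22e-10), whereas an omega-class gene (Mve06G012360) fell 2.13-fold (15.6 CPM at 4 mg/L, 33.2 CPM at 7.5 mg/L). Cytochrome P450-2B (Mve09G003750), a monooxygenase, had 11.1, 12 and 10.1 CPM at 4 mg/L and 0 counts at 7.5 mg/L, at least 356-fold higher when the control is set to the same total. Cytochrome P450 1A1-like (Mve14G010090) fell 4.59-fold (2.41 CPM at 4 mg/L, 11.1 CPM at 7.5 mg/L). Export pumps moved both ways: multidrug resistance-associated protein 5 (Mve09G007030) had 39.5, 41.1 and 44.3 CPM at 4 mg/L, against 0.561, 0.353 and 0.499 CPM at 7.5 mg/L, and protein 1 (Mve17G004100) had 4.42, 3.69 and 3.87 CPM at 4 mg/L, against 29.3, 31.9 and 31.8 CPM at 7.5 mg/L. Among metal genes, copper uptake protein 1 (Mve14G005110) rose 3.2-fold (63 CPM at 4 mg/L, 19.7 CPM at 7.5 mg/L), and 2 genes described as zinc transporter ZIP10 diverged, Mve07G000280 (836 CPM at 4 mg/L, 369.8 CPM at 7.5 mg/L) and Mve15G000530 (43.2 CPM at 4 mg/L, 132 CPM at 7.5 mg/L).

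Cytosolic chaperone genes came out level, 59 higher and 57 lower of 147, a balance that tipped to 56 and 59 under total-count scaling. Both genes described as heat shock protein 90, a chaperone of signalling proteins, rose, Mve01G001290 to 1298 ± 25.8 CPM at 4 mg/L, against 714 ± 7.39 CPM at 7.5 mg/L and Mve02G001700 to 1303 ± 14.7 CPM at 4 mg/L, against 864 ± 15 CPM at 7.5 mg/L. The 10 genes described as heat shock protein 70 did not follow: 5 fell, 1 rose and 4 were not called, and Mve07G002840 had 1588, 1603 and 1653 CPM at 4 mg/L, against 2115, 2163 and 2116 CPM at 7.5 mg/L. Beside these, the co-chaperone DnaJ B4-like (Mve03G003290), which hands clients to HSP70, had 101, 105 and 111 CPM at 4 mg/L, against 16.9, 16.8 and 19.1 CPM at 7.5 mg/L (5.99-fold). A group of falls sat together: 9 neighbouring genes on chromosome 9, 505685 to 636443, all described as HSP70 12A or 12B, each fell at least 2-fold. In that row Mve09G000170 had 2.1, 3.19 and 4.31 CPM at 4 mg/L, against 35.2, 34.7 and 33.5 CPM at 7.5 mg/L, and Mve09G000150 averaged 0.363 ± 0.345 CPM at 4 mg/L and 12.9 ± 0.566 CPM at 7.5 mg/L. Elsewhere on the chromosome the copy Mve09G010120 rose 6.17-fold (16.2 CPM at 4 mg/L, 2.61 CPM at 7.5 mg/L).

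Signalling genes rose more often than they fell in the KEGG mTOR set (53 and 22 of 107) and FoxO set (43 and 23 of 80), both of which link nutrients to growth. In the list for Notch, Wnt, BMP and Hedgehog signalling, which held no tested gene described as hedgehog, 17 of 32 genes rose and 8 fell (median log2 change 0.79). Notch 2-like (Mve03G011320), a receptor, had 18.4, 20.0 and 17.7 CPM at 4 mg/L, against 1.16, 1.76 and 1.53 CPM at 7.5 mg/L (12.5-fold, log2 change 3.65 ± 0.20 (SE), adjusted p = 4.62e-11), while another Notch gene (Mve15G000720) fell to 6.07 ± 0.906 CPM at 4 mg/L, against 29.5 ± 1.52 CPM at 7.5 mg/L. The BMP receptor 1B-like (Mve01G007620) rose 7.26-fold (15.2 CPM at 4 mg/L, 2.1 CPM at 7.5 mg/L), and the ligand BMP 5-like (Mve01G009990) fell 1.86-fold (26.3 CPM at 4 mg/L, 49 CPM at 7.5 mg/L). The 2 groups did not overlap for any of these 4 genes, beside 74.2% of all tested genes.

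Of 42 stress kinase and phosphatase genes 20 rose and 13 fell. Dual specificity phosphatase (DUSP) genes moved both ways. DUSP7-like (Mve08G009940) rose 13.7-fold (4.52 CPM at 4 mg/L, 0.313 CPM at 7.5 mg/L). The more abundant DUSP10 (Mve02G010140) rose 1.19-fold (114 CPM at 4 mg/L, 95.3 CPM at 7.5 mg/L). DUSP12 (Mve14G000280) fell 2.59-fold (3.18 CPM at 4 mg/L, 8.25 CPM at 7.5 mg/L). A JNK-like stress-activated kinase (Mve01G017000) had 13.5, 11.9 and 10.3 CPM at 4 mg/L, against 1.4, 1.62 and 1.94 CPM at 7.5 mg/L (7.16-fold). The phosphatase DUSP1-like (Mve13G000050), which in mammals shuts such kinases off, had 23.4, 25.5 and 23.9 CPM at 4 mg/L, against 54.8, 53.8 and 59.3 CPM at 7.5 mg/L (2.31-fold lower, log2 change -1.21 ± 0.0728 (SE), adjusted p = 2.13e-10). Early growth response protein 1-B-like (Mve13G000680), an immediate early transcription factor that lies on the same chromosome, had 2.13, 3.75 and 3.56 CPM at 4 mg/L, against 24.7, 28 and 22.7 CPM at 7.5 mg/L (7.98-fold lower). Early growth response protein and DUSP1-like fell while Fos-related antigen 1-like (Mve02G005320) rose 1.99-fold (137 CPM at 4 mg/L, 68.8 CPM at 7.5 mg/L). Retinoic acid receptor alpha-like (Mve16G006850) had 156, 165 and 171 CPM at 4 mg/L, against 31.8, 30.7 and 31.2 CPM at 7.5 mg/L (5.25-fold), and ROR-beta-like (Mve08G013830), an abundant nuclear receptor of the clock family, averaged 1695 ± 14 CPM at 4 mg/L and 723 ± 10.1 CPM at 7.5 mg/L. Over the 21 nuclear receptor and clock genes 11 rose and 8 fell. The clock gene timeless-like (Mve15G005800) fell 2.11-fold (58 CPM at 4 mg/L, 122 CPM at 7.5 mg/L) and cryptochrome 1 (Mve05G016410) fell 3.4-fold (5.53 CPM at 4 mg/L, 18.8 CPM at 7.5 mg/L), while protein timeless homolog (Mve07G004900) rose 1.53-fold (17.3 CPM at 4 mg/L, 11.3 CPM at 7.5 mg/L).

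Cell death genes were mixed, 40 higher and 30 lower of 93, with 23 rises and 7 falls of at least 2-fold. BIRC3-like (Mve05G012950), of a family of apoptosis inhibitors, had 232, 215 and 234 CPM at 4 mg/L, against 68, 69.5 and 69.2 CPM at 7.5 mg/L (3.29-fold, log2 change 1.72 ± 0.0456 (SE), adjusted p = 3.87e-15), and death-associated inhibitor 1-like (Mve06G002160) averaged 12.5 ± 2.6 CPM at 4 mg/L and 1.84 ± 0.342 CPM at 7.5 mg/L. Others of the family fell, among them inhibitor of apoptosis protein-like (Mve05G012410), singled out after its values were seen, at 145 ± 3.24 CPM at 4 mg/L and 202 ± 1.64 CPM at 7.5 mg/L. The cytokine gene tumor necrosis factor (Mve15G005970) had 21.5, 21.9 and 21.2 CPM at 4 mg/L, against 65, 65.5 and 63.2 CPM at 7.5 mg/L (3.00-fold lower), and the protease caspase-2-like (Mve13G011850) fell 2.1-fold (31.4 CPM at 4 mg/L, 66.1 CPM at 7.5 mg/L). Every hypoxic value of the cytokine was under every control value. Autophagy genes of the KEGG set numbered 108, of which 54 rose and 25 fell; 2 genes for the autophagy modulator DRAM2 rose, Mve16G000610 by 7.9-fold (38.1 CPM at 4 mg/L, 4.79 CPM at 7.5 mg/L) and Mve16G008130 by 3.98-fold (19.4 CPM at 4 mg/L, 4.86 CPM at 7.5 mg/L).

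Immune recognition genes changed strongly, and for 3 families mostly downward. C1q domain proteins, secreted binders of microbial surfaces that are greatly expanded in bivalves, fell in 21 and rose in 11 of 40 genes (median log2 change -0.80). Many of the falls lay in a stretch of chromosome 6, 4984092 to 6690140, where every tested gene described only as C1q fell. All the rises lay outside that stretch, beside further falls. The sharing of reads between the copies was not tested. A C1q gene on chromosome 6 (Mve06G002060) had 5.38, 6.72 and 5.24 CPM at 4 mg/L, against 72.9, 70.6 and 72.4 CPM at 7.5 mg/L (12.4-fold lower), and C1q-like protein 2 (Mve05G003140) had 1.7, 2.11 and 1.4 CPM at 4 mg/L, against 45.7, 43.7 and 44.1 CPM at 7.5 mg/L (25.5-fold lower, log2 change -4.67 ± 0.14 (SE), adjusted p = 1.47e-14). Against these, C1q-like protein 4 (Mve19G001420) rose to 28.9 ± 2.1 CPM at 4 mg/L, against 1.13 ± 0.786 CPM at 7.5 mg/L. Toll-like receptor and NF-kB genes fell in 29 and rose in 17 of 56. A protein toll-like gene (Mve11G009450), a receptor, had 1.61, 1.36 and 1.16 CPM at 4 mg/L, against 23.9, 25.8 and 27.9 CPM at 7.5 mg/L (18.8-fold lower), and the receptor gene toll-like receptor 4 (Mve01G014230) averaged 0.838 ± 0.574 CPM at 4 mg/L and 22.2 ± 1.2 CPM at 7.5 mg/L. A pair of neighbouring NF-kB inhibitor genes rose: NF-kB inhibitor alpha-like (Mve09G000450), which holds NF-kB in the cytoplasm, had 373, 376 and 414 CPM at 4 mg/L, against 68.3, 65.7 and 69.5 CPM at 7.5 mg/L (5.71-fold, log2 change 2.52 ± 0.0532 (SE), adjusted p = 2.00e-16), and its neighbour cactus (Mve09G000460) averaged 255 ± 9.19 CPM at 4 mg/L and 44.7 ± 2.65 CPM at 7.5 mg/L.

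Tripartite motif (TRIM) genes, ubiquitin ligases of innate immunity in vertebrates, fell in 70 and rose in 34 of 137 (median log2 change -0.50). Many of the falls were neighbours on chromosome 17. A row of 14 consecutive tested genes there, 26806725 to 27364506, and a second row of 9, 33667718 to 33811703, each fell at least 2-fold and held mainly TRIM genes and genes without a known product. Within the first row TRIM56 (Mve17G007730) had 0.68, 0.589 and 0.499 CPM at 4 mg/L, against 25.8, 26.2 and 27.2 CPM at 7.5 mg/L (44.5-fold lower). Chromosome 17 as a whole had 46.3% of 434 tested genes lower and 29.7% higher. Interferon-type GTPases and sensors were balanced, 22 higher and 21 lower of 52, but GTPase IMAP 7-like (Mve04G003610) had 0.154, 0.155 and 0 CPM at 4 mg/L, against 12.3, 13.1 and 10.4 CPM at 7.5 mg/L (111-fold lower). Lectins, which bind sugars, were balanced too, 29 higher and 26 lower of 73, yet ficolin-2-like (Mve03G002320) was among the steepest rises in the data, with 82.2, 74.2 and 79.7 CPM at 4 mg/L, against 0.912, 0.47 and 1.12 CPM at 7.5 mg/L (94.5-fold). The acute phase protein serum amyloid A (Mve08G001030) had 83.6, 88.3 and 80.0 CPM at 4 mg/L, against 808, 847 and 846 CPM at 7.5 mg/L (9.93-fold lower, log2 change -3.31 ± 0.0532 (SE), adjusted p = 5.91e-18).

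Vesicle traffic genes rose more often than they fell. Small GTPase and traffic genes rose in 52 of 115 and fell in 27, and the KEGG endocytosis set gave 109 higher and 43 lower of 216. ADP-ribosylation factor 1 (Mve02G016680), the GTPase that recruits coats to Golgi membranes, had 1505, 1537 and 1486 CPM at 4 mg/L, against 32.9, 28.2 and 31.6 CPM at 7.5 mg/L (48.9-fold, log2 change 5.61 ± 0.0586 (SE), adjusted p = 6.68e-20). A related gene, ADP-ribosylation factor-like (Mve16G010770), had 379, 376 and 381 CPM at 4 mg/L, against 9.54, 11.1 and 11.6 CPM at 7.5 mg/L (35.1-fold). Every hypoxic library exceeded every control library for both. At 2 mg/L they averaged 971 and 192 CPM, less than at 4 mg/L by log2 differences of 0.64 and 0.98. A gene for CDC42 (Mve03G013110), a regulator of actin, had 82.1, 79.7 and 90.1 CPM at 4 mg/L, against 0.877, 1.21 and 0.969 CPM at 7.5 mg/L (81.7-fold).

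The ciliary programme fell as a shallow band. Of 91 markers of ciliated epithelium 50 fell and 15 rose (median log2 change -0.20), and 3 of the falls were at least 2-fold. Axonemal dynein heavy chain 5-like (Mve06G002780), a motor of the beating cilium, had 126, 122 and 132 CPM at 4 mg/L, against 330.3, 313 and 329 CPM at 7.5 mg/L (2.55-fold lower, log2 change -1.35 ± 0.0435 (SE), adjusted p = 5.06e-14). The transcription factor FOXJ1-B-like (Mve01G013100), which in vertebrates switches on the genes of motile cilia, had 13.6, 13.3 and 15.7 CPM at 4 mg/L, against 35.4, 32 and 32.6 CPM at 7.5 mg/L (2.35-fold lower). Both groups were well separated for these genes. Tubulins, of which cilia are built, did not all follow. Tubulin beta-4B-like (Mve15G003390) had 376, 406 and 437 CPM at 4 mg/L, against 1203, 1199.7 and 1162 CPM at 7.5 mg/L (2.92-fold lower), but on chromosome 9 a tubulin beta chain-like gene (Mve09G011930) had 1354, 1395 and 1458 CPM at 4 mg/L, against 44, 36.2 and 40.7 CPM at 7.5 mg/L (34.8-fold higher) beside a neighbour, Mve09G011920, that fell to 30.1 ± 1.86 CPM at 4 mg/L, against 166 ± 5.07 CPM at 7.5 mg/L. How far reads are shared between these copies was not tested.

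Replication and division genes fell in 24 and rose in 9 of 54 (median log2 change -0.29). Cyclin A (Mve09G010460), needed for DNA synthesis and mitosis, had 3.98, 4.65 and 3.93 CPM at 4 mg/L, against 18.4, 18.8 and 19.1 CPM at 7.5 mg/L (4.47-fold lower, log2 change -2.16 ± 0.17 (SE), adjusted p = 5.18e-09). The repair protein XRCC1 (Mve11G010130), a scaffold for single-strand break repair, fell to 1.29 ± 0.847 CPM at 4 mg/L, against 9.12 ± 1.03 CPM at 7.5 mg/L, and DNA ligase 1 (Mve18G000560), which seals nicks, rose to 17.7 ± 2.46 CPM at 4 mg/L, against 1.88 ± 0.258 CPM at 7.5 mg/L. Repair genes as a list leaned neither way, with 18 higher and 21 lower of 65.

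Matrix genes held some of the largest changes in both directions, 72 higher and 68 lower of 177. The adhesion protein SVEP1-like (Mve05G003980) had 113, 115 and 115 CPM at 4 mg/L, against 2.25, 1.71 and 1.82 CPM at 7.5 mg/L (59.8-fold, log2 change 5.90 ± 0.12 (SE), adjusted p = 2.00e-16), and ADAMTS2-like (Mve19G004830), a protease that trims collagen, had 24.2, 23.1 and 21.2 CPM at 4 mg/L, against 224, 232 and 218 CPM at 7.5 mg/L (9.83-fold lower). Large gains in CPM included a pair of neighbouring genes for cartilage intermediate layer protein 2, a matrix protein, on chromosome 18. Mve18G006070 had 9964, 9866 and 9766 CPM at 4 mg/L, against 2428, 2378 and 2331 CPM at 7.5 mg/L, and Mve18G006060 had 3288, 3214 and 3319 CPM at 4 mg/L, against 561, 513 and 500.2 CPM at 7.5 mg/L. They rose 4.15-fold and 6.24-fold, and at 2 mg/L they averaged 983 and 531 CPM. Versican core protein (Mve01G006080), a proteoglycan, gave the largest gain in CPM among the named genes, at 14424 ± 208 CPM at 4 mg/L and 6689 ± 66.5 CPM at 7.5 mg/L. Of 2 polyubiquitin-C genes, the source of ubiquitin, Mve08G001270 rose to 9693 ± 242 CPM at 4 mg/L, against 6284 ± 131 CPM at 7.5 mg/L and Mve09G011060 fell to 7548 ± 11.2 CPM at 4 mg/L, against 10824 ± 219 CPM at 7.5 mg/L. Among the falls by amount were tubulin beta chain-like Mve07G014090 (13142 CPM at 4 mg/L, 17814 CPM at 7.5 mg/L), ferritin 2 (Mve08G009170), the iron store (5334 CPM at 4 mg/L, 7469.7 CPM at 7.5 mg/L), and cytoplasmic actin Mve03G015080 (3586 CPM at 4 mg/L, 5720.2 CPM at 7.5 mg/L).

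**Figure D3:**
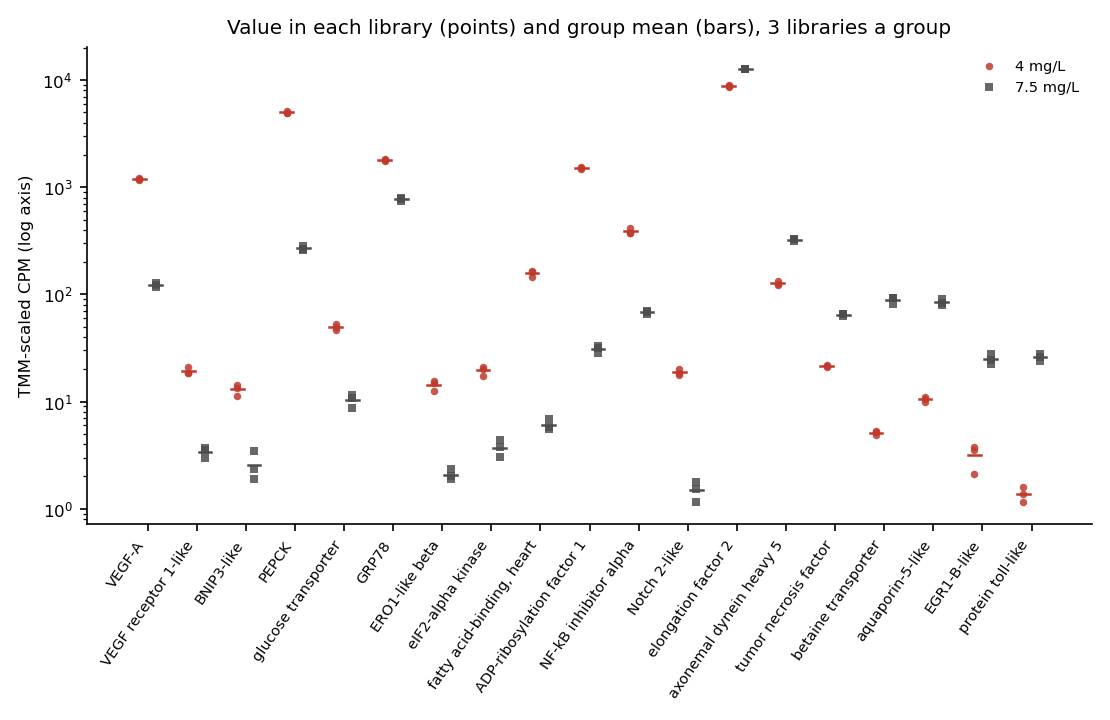
TMM-scaled CPM (vertical, log axis) of 19 genes in each library, red circles for 4 mg/L to the left of grey squares for 7.5 mg/L, with a bar at each group mean. The 3 libraries of a group lie close together for every gene, and the groups do not overlap, from vascular endothelial growth factor A at left to the toll-like gene at right. Named genes were chosen largely for the size of their change, and 74.2% of all tested genes do not overlap.

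Developmental regulators were among the steepest rises of all. DMRT4 (Mve03G009340), of the doublesex family of transcription factors, had 179, 172 and 203 CPM at 4 mg/L, against 1.61, 0.882 and 2.76 CPM at 7.5 mg/L (105-fold, log2 change 6.71 ± 0.18 (SE), adjusted p = 4.62e-15). TBX20 (Mve06G000940), a T-box factor, averaged 33.9 ± 1.11 CPM at 4 mg/L and 0.356 ± 0.0813 CPM at 7.5 mg/L, and Pax-6-like (Mve16G011290) averaged 33 ± 2.18 CPM at 4 mg/L and 0.719 ± 0.228 CPM at 7.5 mg/L. All were near silent in control gill. The homeobox gene EMX2 (Mve13G005410) fell to 0.248 ± 0.284 CPM at 4 mg/L, against 20.3 ± 2.13 CPM at 7.5 mg/L, Nkx-2.1 (Mve02G014120) fell to 6.17 ± 1.91 CPM at 4 mg/L, against 42.5 ± 0.235 CPM at 7.5 mg/L, and over the 67 genes of the list 25 rose and 30 fell. Among 125 G protein-coupled and neurotransmitter receptor genes 46 rose and 57 fell. Large changes there ran in both directions: neuronal acetylcholine receptor alpha-3 (Mve03G000210) had 18.8, 22.8 and 20.7 CPM at 4 mg/L, against 0.14, 0.118 and 0.117 CPM at 7.5 mg/L, and an acetylcholine receptor beta gene (Mve09G008520) had 0.154, 0.62 and 0 CPM at 4 mg/L, against 14.9, 12.7 and 10.7 CPM at 7.5 mg/L. The first was 162-fold higher and the second 48.7-fold lower.

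Across the lists, the steepest single changes among genes averaging at least 20 CPM were mostly rises to a moderate level above near silence. The 12 largest rises ran from 55.3-fold to 114-fold, and the 12 largest falls from 8.3-fold to 159-fold. The top rise was in a gene described as sporulation-specific protein 15-like (Mve02G005380), a name from yeast, with 77.3, 82.6 and 81.2 CPM at 4 mg/L, against 0.526, 0.588 and 0.969 CPM at 7.5 mg/L (log2 change 6.83 ± 0.23 (SE), adjusted p = 8.84e-14). The flap endonuclease GEN1-like (Mve10G010300), which in mammals cuts recombination intermediates, had 56.1, 58.9 and 52.1 CPM at 4 mg/L, against 0.737, 0.353 and 0.499 CPM at 7.5 mg/L (106-fold). The steepest fall was in a leucine-rich repeat gene (Mve04G004040), with 1.45, 1.92 and 0.0312 CPM at 4 mg/L, against 182, 187 and 175 CPM at 7.5 mg/L (159-fold lower). Enzymes that place sulfate on sugars stood on both sides: carbohydrate sulfotransferase 11-like (Mve04G013860), which sulfates chondroitin in mammals, had 72.6, 74.1 and 76.8 CPM at 4 mg/L, against 1.12, 0.882 and 1.2 CPM at 7.5 mg/L, whereas heparan sulfate glucosamine 3-O-sulfotransferase 1-like (Mve15G000580) had 11.8, 12.1 and 12.4 CPM at 4 mg/L, against 101, 104 and 104 CPM at 7.5 mg/L. The transporter that loads the sulfate donor into the Golgi, described as adenosine phosphosulfate transporter 2-like (Mve03G011670), fell 10.7-fold (11.9 CPM at 4 mg/L, 128 CPM at 7.5 mg/L).

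Some genes were present in one of the 2 groups and absent in the other. Present was taken as at least 5 CPM in every library and absent as under 0.1 CPM in every library. Of the 15397 genes tested, 29 were present at 4 and absent at 7.5 mg/L, and 6 were present at 7.5 and absent at 4 mg/L. Of the first group 12 were also absent at 2 mg/L and 1 was present there. It included protocadherin Fat 4-like (Mve05G011690), an adhesion protein, with 21.1, 20.1 and 17 CPM at 4 mg/L and 0 counts at 7.5 mg/L, and the zinc transporter ZIP14-like (Mve16G007410), with 9.08, 8.12 and 9.27 CPM at 4 mg/L and 0 counts at 7.5 mg/L. The second group included nephrin (Mve04G012430), an adhesion protein of the immunoglobulin family, with 0 counts at 4 mg/L and 7.26, 6.47 and 7.72 CPM at 7.5 mg/L, and kelch-like 40b (Mve17G010260), with 0 counts at 4 mg/L and 7.26, 5.88 and 7.34 CPM at 7.5 mg/L. 4 of these 6 were present at 2 mg/L. By the same rule 31 genes were present at 2 and absent at 7.5 mg/L, and 3 were present at 7.5 and absent at 2 mg/L. Genes absent at both 7.5 and 2 mg/L passed the FPKM filter through their 4 mg/L values alone.

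The libraries at 4 mg/L were also tested directly against those at 2 mg/L. The test called 9813 genes (63.7%), 4942 higher at 4 mg/L (32.1%) and 4871 lower (31.6%). Under total-count scaling the median gene shifted by 0.155 on the log2 scale, and 6002 were higher and 4040 lower. 750 genes were called higher at 4 and lower at 2 mg/L, each against the same control libraries, and 739 lower at 4 and higher at 2 mg/L. Caveolin-1-like (Mve08G005800), a coat protein of membrane pits, averaged 57.9 ± 4.84 CPM at 4 mg/L and 2.93 ± 0.624 CPM at 7.5 mg/L. At 2 mg/L it averaged 0.19 ± 0.201 CPM. The tetraspanin CD63 (Mve07G011590), a protein of endosomes, averaged 147 ± 4.41 CPM at 4 mg/L and 2.81 ± 1.16 CPM at 7.5 mg/L. At 2 mg/L CD63 averaged 0.428 ± 0.403 CPM. CD109 antigen-like (Mve09G012960), of the thioester protein family, went the other way, at 0.714 ± 0.227 CPM at 4 mg/L and 2.69 ± 1.14 CPM at 7.5 mg/L. At 2 mg/L that gene averaged 139 ± 2.79 CPM. The 4 mg/L libraries were the high ones for the first pair, and the 2 mg/L libraries for the last.

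**Figure D4:**
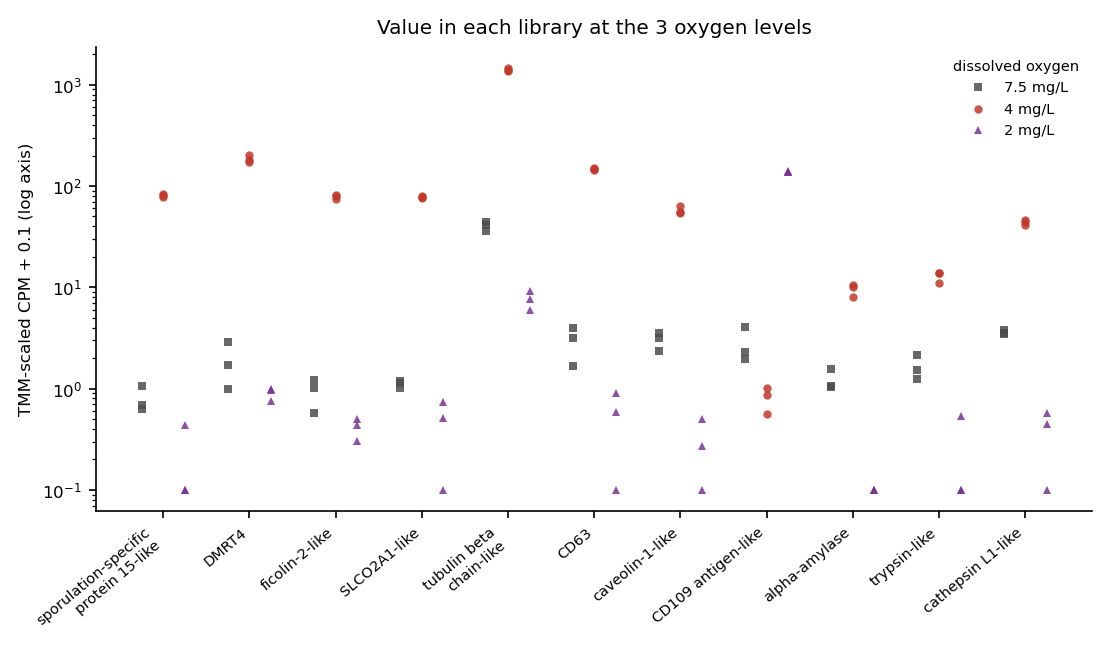
TMM-scaled CPM plus 0.1 (vertical, log axis) of 11 genes in each library at 7.5 (grey squares), 4 (red circles) and 2 mg/L (purple triangles). For 10 of the genes the 4 mg/L libraries lie above both other groups, and CD109 antigen-like is high at 2 mg/L alone. The 3 digestive enzymes at right are digestive gland markers that were higher at 4 mg/L. Other members of that list fell or were not called.

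Markers of other cell types that a gill sample can hold moved less uniformly. Haemocyte markers, for the circulating immune cells of the clam, split 11 higher and 11 lower of 27; the blood cell regulator GATA-3 (Mve08G016060) had 154, 143 and 146 CPM at 4 mg/L, against 30.6, 29.9 and 32.1 CPM at 7.5 mg/L (4.78-fold higher), and laccase-1-like (Mve09G005570) fell to 10.9 ± 0.578 CPM at 4 mg/L, against 62.1 ± 2.12 CPM at 7.5 mg/L. Haemocyte markers summed to 2342 to 2424 CPM at 4 mg/L and 2319 to 2342 CPM at 7.5 mg/L. Muscle markers fell in 13 and rose in 9 of 26, summing to 4002 to 4220.5 CPM at 4 mg/L and 4258 to 4346 CPM at 7.5 mg/L. Of 15 mucous cell markers 6 rose and 6 fell, with sums of 2608 to 2671 CPM at 4 mg/L and 4321 to 4530.5 CPM at 7.5 mg/L. Most of that sum came from mucin-16-like (Mve12G008090), which fell to 1883 ± 23.7 CPM at 4 mg/L, against 3754 ± 89.2 CPM at 7.5 mg/L. Mantle and shell markers gave 5 higher and 3 lower of 12, with sums of 128 to 136 CPM at 4 mg/L and 205 to 219 CPM at 7.5 mg/L. Gonad markers gave 7 higher and 8 lower of 20, with sums of 856 to 875 CPM at 4 mg/L and 1461 to 1519 CPM at 7.5 mg/L. Most of these genes are described as vitelline membrane outer layer protein 1. The most abundant, Mve15G009460, fell to 230 ± 3.13 CPM at 4 mg/L, against 620 ± 6.11 CPM at 7.5 mg/L. Piwil1 (Mve11G006630) rose to 71.3 ± 5.59 CPM at 4 mg/L, against 44.9 ± 1.14 CPM at 7.5 mg/L, and Piwil2 and PIWIa were not called. Neuron markers gave 31 higher and 47 lower of 100, with sums of 2002 to 2055 CPM at 4 mg/L and 2313 to 2349.6 CPM at 7.5 mg/L. The part of any of these cell types in the gene lists above was not tested.

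**Figure D5:**
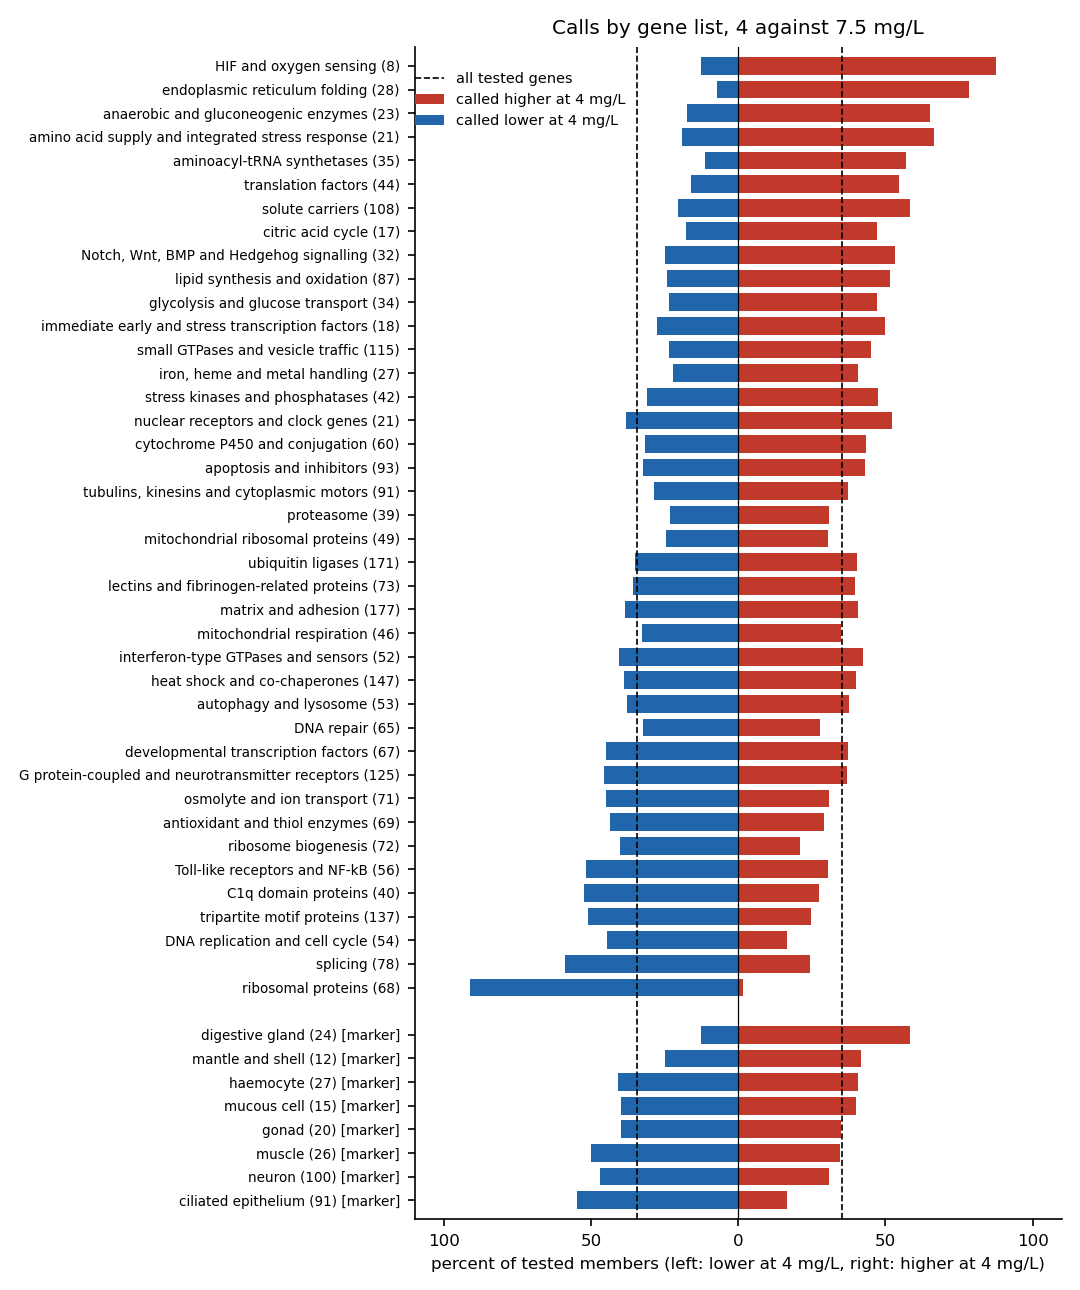
Percent of tested members called higher (red, right) and lower (blue, left) at 4 mg/L against 7.5 mg/L in 40 gene lists and 8 marker lists, number tested in brackets, with dashed lines at the shares over all genes (35.4% and 34.5%). The lists named for oxygen sensing and endoplasmic reticulum folding extend farthest to the right and ribosomal proteins farthest to the left.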

How the data were processed

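Messenger RNA of gill was sequenced in 9 libraries, and this account uses the 3 at 4 mg/L and the 3 at 7.5 mg/L oxygen, with the 3 at 2 mg/L for one further comparison. Per the labels' protocols, libraries were oligo(dT) selected, kept strand through a dUTP second strand and were read as pairs of 150 bp. The deposited table holds the authors' raw counts per gene, whole numbers with no scaling per the file headers, beside the authors' FPKM values, which are scaled to gene length and library size per the file headers. The submitters' processing notes name cutadapt 1.9, HISAT2 2.2.1, StringTie 2.1.6, DESeq2 and edgeR. The genome build and the use of strand in counting are not given in the sources used here, so reads of overlapping or antisense genes cannot be told apart. Even counts outnumbered odd ones among low values (2649 cells held a 2, 1914 a 3 and 3567 a 4), so 1 count is not 1 independent molecule and floors cover counting error only.

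Totals per library lay between 26994566 and 32246147 counts. Those genes whose FPKM averaged at least 1 over the 9 libraries were tested with edgeR 4.0.16 (R 4.3.3), TMM scaling, a quasi-likelihood fit with 1 coefficient per group over all 9 libraries, and p-values adjusted by Benjamini-Hochberg over these genes. The edgeR fit was tested on simulated data. Standard errors come from the fitted change and its F statistic. A group with 0 counts was set to a floor of 3 counts over the group. Alternatives used total counts, median-of-ratios scaling, DESeq2 1.42.0, limma 3.58.1 on log2(FPKM + 1) and log2(FPKM + 0.1), other filters and thresholds, the 2 groups alone, replicate number as a block, and each library left out. Tables and figures were made with Python 3.11.15, pandas 2.3.3 and matplotlib 3.10.9.

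Genes named are, by rule, the 12 largest rises and 12 largest falls at a mean of at least 20 CPM with an informative description and no overlap, the 3 largest in each direction per list at 5 CPM or more, the 12 largest differences in CPM, a set of sentinel genes, and the 8 genes that differ most between 4 and 2 mg/L in opposite directions against the control. Others are said in the text to have been chosen after their values were seen, or are copies and neighbours of named genes. The members and lists were chosen with earlier results of these data known. Lists are described by counts and medians without a test of the list, and their medians with genes at 0 set to their bound were the same to 2 decimals.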

Additional observations from a re-analysis of the deposited data

Results flagged for a closer look

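8 genes stood out because the libraries at 4 and 2 mg/L departed from the shared control in opposite directions and differed from each other by edgeR's test. The differences below are log2 values, 4 minus 2 mg/L. The gene described as sporulation-specific protein 15-like (Mve02G005380) was higher at 4 mg/L by 9.34, the tetraspanin CD63 (Mve07G011590) by 8.48, and caveolin-1-like (Mve08G005800) by 8.29. Ficolin-2-like (Mve03G002320), DMRT4 (Mve03G009340) and the organic anion transporter SLCO2A1-like (Mve18G004190) were higher by 7.96, 7.83 and 7.82. The tubulin beta chain-like gene Mve09G011930 was higher by 7.56. CD109 antigen-like (Mve09G012960) differed the other way, at -7.59. For all but the tubulin gene, the control and the lower hypoxic group were both at a few CPM or less. Their downward departure from the control was therefore between low levels. These 8 were the largest such differences at a mean of at least 20 CPM, among 750 genes called higher at 4 and lower at 2 mg/L and 739 called the reverse, and groups of 3 libraries were not screened for single outlying libraries.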

How the results depend on the processing

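The number of genes called between 4 and 7.5 mg/L (10760), the number changed at least 2-fold (5027) and the number called between 4 and 2 mg/L (9813) stayed within 1.5 times under every alternative but one. With a mean FPKM of at least 5 required, which tests 8321 genes, they were 6248, 2068 and 5923. Leaving out one library at a time gave 10124 to 10780, 4997 to 5058 and 9182 to 9758. The replicate numbers did not pair the samples (correlations of same-numbered libraries -0.026, 0.001 and -0.022), and with the number as a replicate block the counts were 10519, 5012 and 9531. Between 4 and 2 mg/L the split of higher and lower genes depended on scaling, with 6089 and 4038 under limma on log2(FPKM + 1). Of 5569 values for 315 named genes under the alternatives, 5528 stayed on their side of the threshold, 36 fell short of it, 5 newly passed it and none reversed. Of 1728 counts of list members, 49 moved by over 1.5 times, 43 of them under the stricter FPKM filter. Mitochondrial respiration had 10 higher genes under total counts and both limma settings. Iron and metal genes had 10 lower under total counts. Ribosomal proteins had 2 higher without control replicate 3, and mantle and shell markers 5 lower without control replicate 2. 2 groups of 3 libraries allow an exact permutation p no smaller than 0.1, so no single value was tested that way, and calls of weakly expressed genes rest on few counts.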

Other observations

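Neighbouring genes of one description were called in the same direction more often than in opposite ones. Of 452 neighbouring pairs with the same description, 283 had both genes called between 4 and 7.5 mg/L, 199 in the same direction and 84 in opposite directions (29.7%). Among 6066 neighbouring pairs with other descriptions, 2894 had both genes called, 1541 in the same direction and 1353 in opposite directions (46.8%). Where both copies changed at least 2-fold, 85 pairs with the same description shared a direction and 21 did not. How far the copies share reads was not tested.

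Runs of at least 3 consecutive tested genes changed at least 2-fold in one direction numbered 116 upward and 106 downward. Beside the rows of TRIM and HSP70 genes, the longest upward run held 7 genes on chromosome 9, 46655005 to 46881166, several of them described as patched domain-containing protein 3. A run of 6 genes on chromosome 1, 43073063 to 43638822, held elongation factor 2 kinase.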
